A study of Mus musculus with 15 samples.

Results

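Bclaf1 and its paralog Thrap3 were described across 15 mouse pre-B cell RNA-seq libraries, 6 of which carry the label shBCLAF1. The 2 genes were taken by their symbols from the 11551 genes listed in any of 4 deposited tables. Bclaf1 (ENSMUSG00000037608) and Thrap3 (ENSMUSG00000043962) were each represented by 1 row with a value in every library. Each table lists only genes below the authors' own adjusted p of 0.05, so both genes, like all 11551, had passed at least 1 of the authors' comparisons. Bclaf1 was listed only for the comparisons of the shBCLAF1 label within each line, which are tested again below on the same libraries. Adjusted p-values and shares of all genes below refer to this chosen set, not to all expressed genes, and are not calibrated for that choice.

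BCLAF1 and THRAP3 are related nuclear proteins rich in arginine and serine. They are found together in complexes that splice pre-mRNA and export mRNA, and in human cells both have been linked to the processing of transcripts of the DNA damage response. BCLAF1 was first found as a partner of anti-apoptotic relatives of BCL2, and THRAP3 was first purified with the thyroid hormone receptor and Mediator. In B-cell progenitors, the recombinase made of RAG1 and RAG2 cuts antigen receptor genes, and the title of the series places BCLAF1 with SPIC, an ETS-family factor, as an antagonist of the related factor PU.1 after such cuts.

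The cells were Abelson lines, pre-B cells transformed by the v-Abl kinase, at passages 10 to 15. All 15 cultures were kept for 48 h in imatinib, which blocks that kinase, so no group shows these cells without the drug. The groups, with 3 libraries each, were Art_shBCLAF1 and Art, both Art -/- (lacking Artemis, the nuclease that opens the hairpin ends left by RAG), and Rag_SPIC_tet_DOX_shBCLAF1, Rag_SPIC_tet_DOX and Rag_SPIC_tet_NoDOX, all Rag -/- (without RAG cuts). The Rag -/- groups have SPIC under a tetracycline-controlled construct in their names, and the first 2 of these 3 received doxycycline (agent DOX). The groups not named shBCLAF1 have shRNA given as "none", so a control hairpin is not among them, and the sources used here do not give the hairpin's sequence. Replicates are not stated to be separate cultures, so the p-values cover the spread among the libraries sequenced, and that spread may be technical.

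The effective depth was 17.2 to 27.1 M reads in 14 libraries and 5.81 M reads in Art replicate 3. Art replicate 3 also stood apart in its values: the root mean square log2 difference from Art replicates 1 and 2 over all genes was 0.94 and 0.95, against 0.27 between replicates 1 and 2. Rag_SPIC_tet_DOX replicates 1 and 2 differed by 0.83, and all pairs of the other 3 groups by 0.24 to 0.36. The fits of Bclaf1 and Thrap3 and the list counts that rest on Art replicate 3 are therefore given with and without it. All 15 pre-B markers examined were in the tables, including Vpreb1 and Rag1. Their summed level was 7120 to 7861 CPM in Art_shBCLAF1 and 14267 to 15204 CPM in Art, and 8945 to 9339 CPM in Rag_SPIC_tet_DOX_shBCLAF1, 9856 to 14489 CPM in Rag_SPIC_tet_DOX and 12097 to 12738 CPM in Rag_SPIC_tet_NoDOX. This sum was lower in the libraries labelled shBCLAF1 in both lines, and its part in the results was not tested. Of other cell types, the myeloid markers Mpo, Elane, S100a8 and S100a9, the T-cell markers Cd3e, Cd4 and Cd8a and the globin genes were not in the tables used here. The 6 myeloid markers measured summed to 59.3 to 61.6 CPM in Art_shBCLAF1 and 33.0 to 36.6 CPM in Art, and to 26.0 to 28.6 CPM in Rag_SPIC_tet_DOX_shBCLAF1 and 61.1 to 75.6 CPM in Rag_SPIC_tet_DOX, so they went opposite ways in the 2 lines. Lck, the only T or NK marker measured of 8, had 5.15 to 6.16 CPM in Art_shBCLAF1 and 80.0 to 85.1 CPM in Art, and 20.3 to 21.1 CPM in Rag_SPIC_tet_DOX_shBCLAF1 and 28.1 to 30.6 CPM in Rag_SPIC_tet_DOX. The 4 plasma-cell markers measured of 5 summed to 181 to 190 CPM in Art_shBCLAF1 and 259 to 315 CPM in Art, and to 142 to 147 CPM in Rag_SPIC_tet_DOX_shBCLAF1 and 194 to 226 CPM in Rag_SPIC_tet_DOX. Lck and the plasma-cell sum were thus lower with the label in both lines, and the part of these markers in the results was not tested.

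The promoters are shown because the 2 genes moved together and because SPIC and PU.1 both bind GGAA, the core of ETS sites. The windows run from 250 bases before to 50 bases after the RefSeq start, in GRCm38.p6, which is not the build named by the authors (mm9). Bclaf1 lies at chr10:20312219-20312518 on the plus strand and Thrap3 at chr4:126202661-126202960 on the minus strand. Capitals mark GGAA or its complement TTCC, and both sequences read 5′ to 3′ along the gene.
Bclaf1: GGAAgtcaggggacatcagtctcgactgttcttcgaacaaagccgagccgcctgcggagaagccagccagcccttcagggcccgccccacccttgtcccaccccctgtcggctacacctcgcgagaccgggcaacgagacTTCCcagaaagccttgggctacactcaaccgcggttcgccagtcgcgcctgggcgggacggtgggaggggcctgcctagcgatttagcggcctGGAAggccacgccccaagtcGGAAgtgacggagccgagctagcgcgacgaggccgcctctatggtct
Thrap3: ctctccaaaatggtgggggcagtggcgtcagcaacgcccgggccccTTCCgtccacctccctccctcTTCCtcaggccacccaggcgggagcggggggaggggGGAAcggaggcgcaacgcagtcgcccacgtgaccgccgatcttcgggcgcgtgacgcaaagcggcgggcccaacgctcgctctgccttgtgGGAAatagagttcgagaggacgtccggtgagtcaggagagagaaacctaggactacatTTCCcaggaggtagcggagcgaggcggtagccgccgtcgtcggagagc

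The Bclaf1 window held 4 matches to GGAA over both strands and the Thrap3 window held 5. GGAA was found in 96.0% of 32851 RefSeq promoter windows of this length, so a match is the rule. CACGTG, the E-box core bound by MYC and USF factors, was found 1 time in Thrap3, 0 times in Bclaf1 and in 7.15% of all windows. No match to either motif overlapped one to the other. Both windows were rich in CpG, with 28 CpG dinucleotides and a GC content of 66.3% in Bclaf1 and 31 and 67.0% in Thrap3, against medians of 7 and 52.7% over all windows. A match describes these letters only.

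Bclaf1 mRNA was not lower in the libraries labelled shBCLAF1. In Art_shBCLAF1, replicates 1 to 3 had 8.29, 8.35 and 8.32 log2 CPM of Bclaf1 (log2 of reads per 1000000, with 0.5 added to the read count), against 7.81, 7.75 and 6.41 log2 CPM in Art. In Rag_SPIC_tet_DOX_shBCLAF1 they had 7.99, 8.05 and 8.10 log2 CPM, against 7.76, 7.69 and 7.73 log2 CPM in Rag_SPIC_tet_DOX. Rag_SPIC_tet_NoDOX had 7.63, 7.70 and 7.77 log2 CPM. Every labelled library was above every library of its own line without the label. The targeted transcript therefore goes against the label at the level of gene counts, and the groups are called by their labels throughout. BCLAF1 protein was not measured here.

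Thrap3, the paralog, which no label names as a target, had the same order. It had 7.88, 7.84 and 7.95 log2 CPM in Art_shBCLAF1, against 7.41, 7.41 and 6.09 log2 CPM in Art. Thrap3 had 7.75, 7.80 and 7.86 log2 CPM in Rag_SPIC_tet_DOX_shBCLAF1, against 7.53, 7.55 and 7.61 log2 CPM in Rag_SPIC_tet_DOX. In Rag_SPIC_tet_NoDOX it had 7.50, 7.55 and 7.57 log2 CPM. As for Bclaf1, the labelled libraries lay above the unlabelled ones in both lines with no overlap. The lowest library for both genes was Art replicate 3, where the values rest on 495 reads of Bclaf1 and 396 of Thrap3, while the other 14 libraries held 3532 to 7428 and 2925 to 6299 reads.

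**Figure D1:**
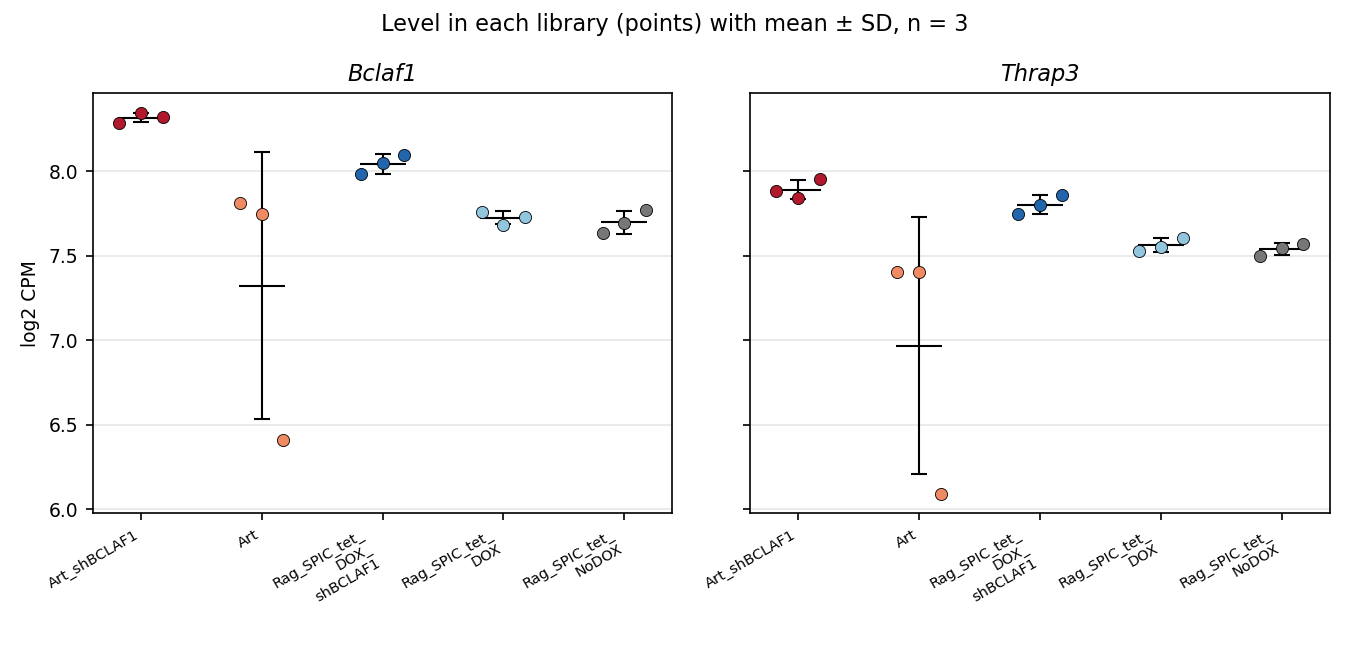
Level of Bclaf1 (left) and Thrap3 (right) in log2 CPM, with 1 point per library in replicate order, and bars for the mean and SD of each group (n = 3). The labelled groups, in dark red and dark blue, lie above their unlabelled groups to the right of them, and Art replicate 3 lies lowest at 6.41 and 6.09 log2 CPM.

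Per kilobase of the longest coding transcript in GENCODE M21 (5437 bases for Bclaf1 and 4378 for Thrap3), the 2 genes were of similar level. Bclaf1 averaged 58.7 ± 1.19 CPM per kb in Art_shBCLAF1 and 32.2 ± 14.3 in Art (SD, n = 3 each). Without Art replicate 3 the mean of Art was 40.4 CPM per kb (n = 2). Bclaf1 then averaged 48.6 ± 1.90 CPM per kb in Rag_SPIC_tet_DOX_shBCLAF1, 39.0 ± 1.05 in Rag_SPIC_tet_DOX and 38.3 ± 1.82 in Rag_SPIC_tet_NoDOX. From high to low, Bclaf1 thus ran from Art_shBCLAF1 and Rag_SPIC_tet_DOX_shBCLAF1 down to the 3 unlabelled groups, whose libraries overlap once Art replicate 3 is left out.

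Thrap3 averaged 54.3 ± 2.13 CPM per kb in Art_shBCLAF1 and 31.0 ± 13.4 in Art, with 38.8 in Art without Art replicate 3. It averaged 51.0 ± 2.05 CPM per kb in Rag_SPIC_tet_DOX_shBCLAF1, 43.2 ± 1.20 in Rag_SPIC_tet_DOX and 42.5 ± 1.0 in Rag_SPIC_tet_NoDOX. The labelled groups were again the 2 highest and Art the lowest. The labelled groups overlap each other for Thrap3, as do Rag_SPIC_tet_DOX and Rag_SPIC_tet_NoDOX. In this bulk RNA, more cells with a transcript and more transcript per cell cannot be told apart.

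In the Artemis-deficient line, Bclaf1 was 0.99 log2 units higher in Art_shBCLAF1 than in Art (SE 0.37, 95% confidence interval 0.09 to 1.90), with an adjusted p of 0.068 from limma over all genes. Thrap3 was 0.92 higher (SE 0.36, interval 0.05 to 1.80, limma adjusted p 0.076), so neither passed 0.05 with all 6 libraries. Without Art replicate 3, Bclaf1 rose by 0.54 (SE 0.06, interval 0.41 to 0.67, limma adjusted p 6.20e-06) and Thrap3 by 0.49 (SE 0.06, interval 0.36 to 0.61, limma adjusted p 1.68e-05). Both intervals lie above 0 in both versions, and the values without Art replicate 3 correspond to a 1.45-fold and a 1.4-fold higher level. Changes were common: 49.0% of the 11551 genes passed with all libraries (25.0% higher), and 80.1% (40.6% higher) without Art replicate 3. All 3 labelled libraries above all 3 unlabelled ones was seen for 33.9% of genes.

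Many genes differed by more than these 2 did. With all libraries, 82.6% of genes had a lower fold change than Bclaf1 and 80.9% a lower one than Thrap3, and without Art replicate 3 these shares were 71.1% and 69.2%. In the authors' deposited table, which gives Art minus Art_shBCLAF1, Bclaf1 is listed at -0.55 (adjusted p 8.31e-10) and Thrap3 at -0.52 (adjusted p 1.59e-09), which is higher in Art_shBCLAF1. These sizes are smaller than those of the limma fit here with all libraries, where neither gene passed. They are near those without Art replicate 3.

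In the Rag-deficient line with doxycycline, Bclaf1 rose by 0.32 in Rag_SPIC_tet_DOX_shBCLAF1 against Rag_SPIC_tet_DOX (SE 0.06, interval 0.18 to 0.46, limma adjusted p 0.0054). Thrap3 rose by 0.24 (SE 0.06, interval 0.10 to 0.38, limma adjusted p 0.0144). These are 1.25-fold and 1.18-fold. Among all genes, 53.6% passed (28.5% higher), and 35.5% had every labelled library above every unlabelled one, so the direction of the 2 genes was shared by many. Bclaf1 stood above 68.3% and Thrap3 above 63.6% of genes by fold change. When each library was centred on its own median, which shifts the median of all genes from 0.05 to -0.05, Bclaf1 was 0.22 higher (adjusted p 0.043) and Thrap3 0.14 higher (adjusted p 0.204, not passing). Thrap3 also lost its call without Rag_SPIC_tet_DOX_shBCLAF1 replicate 2 (0.24, adjusted p 0.064) or replicate 3 (0.21, adjusted p 0.068). The authors' deposited table, as Rag_SPIC_tet_DOX minus Rag_SPIC_tet_DOX_shBCLAF1, lists -0.32 for Bclaf1 (adjusted p 1.2e-07) and -0.20 for Thrap3 (adjusted p 5.69e-05).

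Set against the Rag-deficient cells without doxycycline, Bclaf1 in Rag_SPIC_tet_DOX_shBCLAF1 rose by 0.34 (SE 0.05, interval 0.24 to 0.45, limma adjusted p 5.76e-06) and Thrap3 by 0.26 (SE 0.05, interval 0.17 to 0.36, limma adjusted p 5.76e-05). In this pair of groups 79.7% of genes passed (41.0% higher), and 41.8% had all 3 libraries above. Doxycycline and the label differ together here.

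Over both lines at once, with line as a term (12 libraries), Bclaf1 rose with the label by 0.66 (SE 0.22, limma adjusted p 0.027) and Thrap3 by 0.58 (SE 0.21, limma adjusted p 0.040). Of all genes 49.1% passed (26.3% higher). Without Art replicate 3 the sizes were 0.42 (adjusted p 0.00016) and 0.35 (adjusted p 0.00058), and 62.0% of genes passed (32.9% higher). An exact two-sided permutation test of the label within lines gave p = 0.005 for each gene, the smallest that its 400 arrangements allow (0.0075 after adjustment over 3 values tested). Any gene with all labelled libraries above all unlabelled ones in both lines reaches this p. That separation was seen for 33.9% of genes in the Art line and 35.5% in the Rag line, and the share with both was not counted. With library medians centred, the limma sizes were 0.49 (adjusted p 0.058) and 0.42 (adjusted p 0.095), so neither gene passed in limma on that scale. The exact test again gave its smallest p there, 0.0075 after adjustment for both.

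The label effect in Art minus that in Rag_SPIC_tet_DOX was 0.68 for Bclaf1 (SE 0.41, interval -0.22 to 1.58, limma adjusted p 0.229) and 0.68 for Thrap3 (SE 0.39, interval -0.18 to 1.55, limma adjusted p 0.209), while 31.3% of all genes passed. Without Art replicate 3 the differences were 0.22 (adjusted p 0.027) and 0.25 (adjusted p 0.020), and 54.4% of genes passed. The test of a larger effect in Art thus turned on 1 library. Genotype, the SPIC construct in the group names and doxycycline differ together between these lines, so their parts cannot be told apart.

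**Figure D2:**
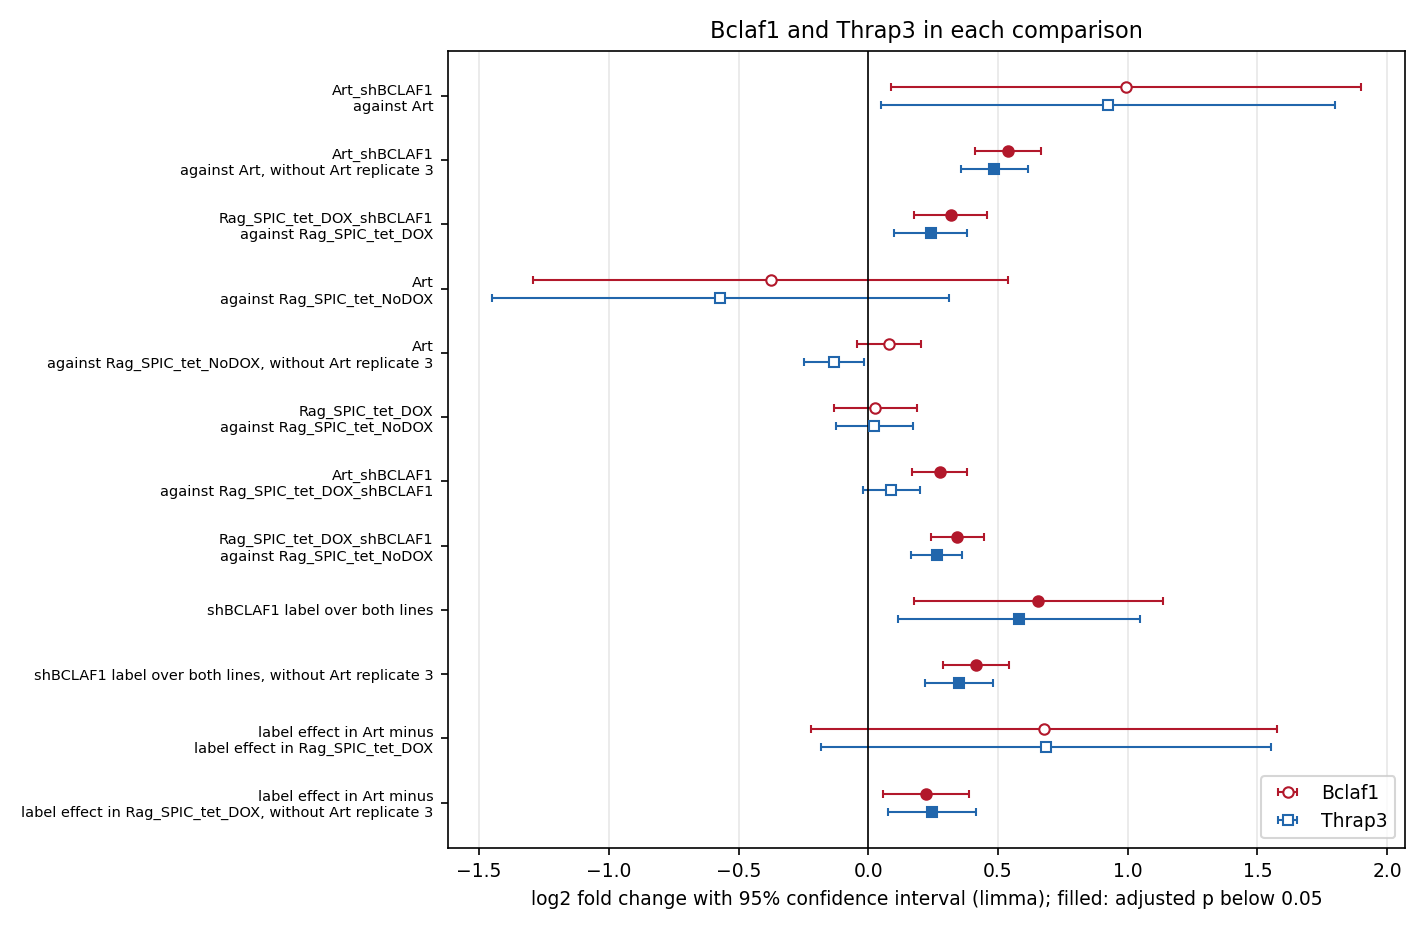
Log2 fold change of Bclaf1 (red circles) and Thrap3 (blue squares) in each comparison, with 95% confidence intervals from limma; filled symbols have an adjusted p below 0.05. All label comparisons lie above 0, and the intervals narrow from 0.09 to 1.90 for Bclaf1 in Art_shBCLAF1 against Art to 0.41 to 0.67 without Art replicate 3.

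Neither gene passed the test between the Rag-deficient cells with and without doxycycline, the agent that induces SPIC. Bclaf1 differed by 0.03 between Rag_SPIC_tet_DOX and Rag_SPIC_tet_NoDOX (SE 0.07, interval -0.13 to 0.19, limma adjusted p 0.799) and Thrap3 by 0.02 (SE 0.06, interval -0.12 to 0.17, limma adjusted p 0.808). The intervals hold changes of up to 1.14-fold and 1.13-fold upward. Here 11.8% of genes passed (1367 genes), and this count was 12 to 4569 with 1 library left out, the lowest without Rag_SPIC_tet_NoDOX replicate 1 and the highest without Rag_SPIC_tet_DOX replicate 2. Neither gene is listed in the authors' deposited table of this pair. Spic itself, the induced gene, averaged 4.21 ± 0.44 log2 CPM in Rag_SPIC_tet_DOX and 0.82 ± 0.62 log2 CPM in Rag_SPIC_tet_NoDOX (SD, n = 3 each).

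Spic also moved with the shBCLAF1 label. It averaged 4.54 ± 0.24 log2 CPM in Art_shBCLAF1 and 0.44 ± 0.36 in Art, and 7.46 ± 0.04 in Rag_SPIC_tet_DOX_shBCLAF1 and 4.21 ± 0.44 in Rag_SPIC_tet_DOX. Its rise was 4.10 (SE 0.24, limma adjusted p 0.00013) in the Art line, or 3.96 without Art replicate 3, and 3.25 (SE 0.21, limma adjusted p 0.00022) in the Rag line. The label and the Spic level therefore differ together in both lines, and the part of Spic in the levels of Bclaf1 and Thrap3 was not tested.

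Between the unlabelled lines, Art against Rag_SPIC_tet_NoDOX, Bclaf1 differed by -0.38 (SE 0.38, interval -1.29 to 0.54, limma adjusted p 0.586) and Thrap3 by -0.57 (SE 0.36, interval -1.45 to 0.31, limma adjusted p 0.413). Without Art replicate 3 the values were 0.08 for Bclaf1 (adjusted p 0.282) and -0.13 for Thrap3 (interval -0.25 to -0.02, adjusted p 0.057), so the sign for Bclaf1 turned. All 3 Art libraries lay below all 3 Rag_SPIC_tet_NoDOX libraries for Thrap3, as for 19.4% of genes, while Bclaf1 overlapped. The share of genes that passed was 5.14% with all libraries and 47.4% without Art replicate 3, and at most 1 gene passed when any other 1 of the 6 libraries was left out. The authors' deposited table, as Rag_SPIC_tet_NoDOX minus Art, lists Thrap3 at 0.15 (adjusted p 0.0119), lower in Art, and does not list Bclaf1. Genotype and the SPIC construct in the group name differ together between these groups.

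Between the labelled lines, Bclaf1 was 0.27 higher in Art_shBCLAF1 than in Rag_SPIC_tet_DOX_shBCLAF1 (SE 0.05, interval 0.17 to 0.38, limma adjusted p 0.00032), with all 3 libraries above, as for 31.5% of genes. Thrap3 was 0.09 higher (SE 0.05, interval -0.02 to 0.20, limma adjusted p 0.147), and its libraries overlapped. In this pair 59.7% of genes passed. Genotype, the SPIC construct in the group name and doxycycline differ together here.

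The ratio of the 2 paralogs was read within each library. Bclaf1 minus Thrap3 was 0.41, 0.51 and 0.37 log2 units in Art_shBCLAF1, against 0.41, 0.34 and 0.32 in Art. It was 0.24, 0.24 and 0.24 in Rag_SPIC_tet_DOX_shBCLAF1, against 0.23, 0.13 and 0.13 in Rag_SPIC_tet_DOX, and 0.13, 0.15 and 0.20 in Rag_SPIC_tet_NoDOX. All 6 Artemis-deficient libraries, Art replicate 3 among them, were higher than all 9 Rag-deficient ones. How many other pairs of genes separate in this way was not counted, so the separation is not read as particular to this pair. The difference was 0.07 between Art_shBCLAF1 and Art (exact p 0.3), 0.08 between Rag_SPIC_tet_DOX_shBCLAF1 and Rag_SPIC_tet_DOX (exact p 0.1), 0.19 between Art and Rag_SPIC_tet_NoDOX (exact p 0.1) and 0.003 between Rag_SPIC_tet_DOX and Rag_SPIC_tet_NoDOX (exact p 0.9). With 3 against 3 libraries this two-sided permutation test cannot go below 0.1, and adjusted over the 4 comparisons the values were 0.4, 0.2, 0.2 and 0.9. Over both lines the label shifted the ratio by 0.07 (exact two-sided permutation test within lines, p 0.03, adjusted 0.03). That call was lost without any 1 of 8 of the 12 libraries, with adjusted p up to 0.07, Art replicate 3 included.

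**Figure D3:**
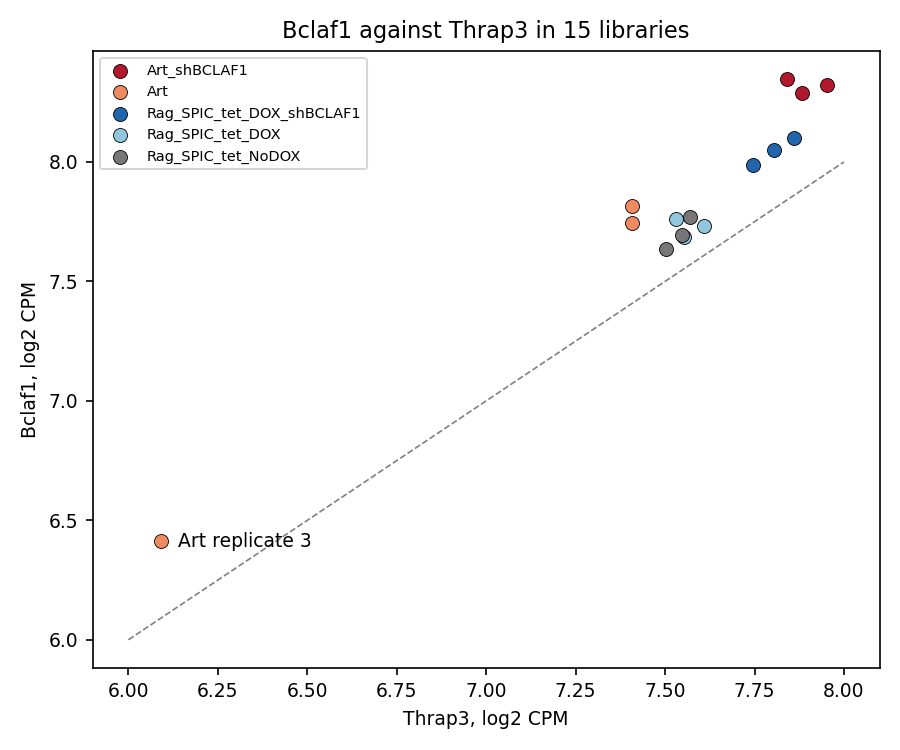
Bclaf1 against Thrap3 in log2 CPM, 1 point per library; the dashed line marks equal values. Art replicate 3 lies far down along the same direction (6.09 and 6.41 log2 CPM), and the Artemis-deficient libraries lie farther above the line than the Rag-deficient ones.

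Across all 15 libraries the Pearson correlation of Bclaf1 with Thrap3 was 0.967, which ranked Thrap3 at 39 of 11550 genes for likeness to Bclaf1, and Bclaf1 at 75 for likeness to Thrap3. Over the 14 libraries without Art replicate 3 it was 0.898, and the ranks fell to 339 and 836. These correlations describe libraries that share groups and depth, and many genes reach such values. The 5 genes most like Bclaf1 over 15 libraries were Rif1 (0.996), which protects broken DNA ends, Zfp318, Arl15, Kif5b, a kinesin motor, and Adam9, a membrane protease. Over 14 libraries they were Gtf2a1 (0.991), a subunit of the general factor TFIIA, Ppip5k2, Rif1 (0.985), Klhdc1 and Phf10. Rif1 was the only one of these genes in both lists.

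For Thrap3 the 5 over 15 libraries included Cd2ap (0.989), Top2b, a DNA topoisomerase, Chd1, a chromatin remodeller, and Xrn2, a nuclear exonuclease. Over 14 they were Zdhhc21 (0.980), Lsm11, a part of the histone mRNA processing particle, Celsr1, Usp1 and Rpl18. None of the first 5 was among the second, so the likeness of Thrap3 rested in part on Art replicate 3. Rpl18 encodes a ribosomal protein, of a class with many processed copies that can share reads.

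The level of both genes in Art replicate 3 was set beside the rest of that library. Bclaf1 lay 1.37 log2 units below the mean of Art replicates 1 and 2 (-1.37), a place with 8.59% of genes lower still, and Thrap3 lay at -1.32, with 9.38% lower. Over 11521 genes with an annotated transcript, the deviation of this library followed GC content (Spearman rho 0.64 across genes, which are not independent replicates). Bclaf1 has a GC content of 39.6%, and 496 genes within 1 percentage point of it had a median deviation of -1.28, near its own. Thrap3 has 50.4%, and 1191 genes within 1 point had a median of 0.04, with a 5% to 95% range of -1.04 to 1.16. Thrap3 thus lay below the 5% to 95% range of genes of its GC content, among the lowest 5% of them. Bclaf1 was inside its own 5% to 95% range (-2.66 to 0.18).

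**Figure D4:**
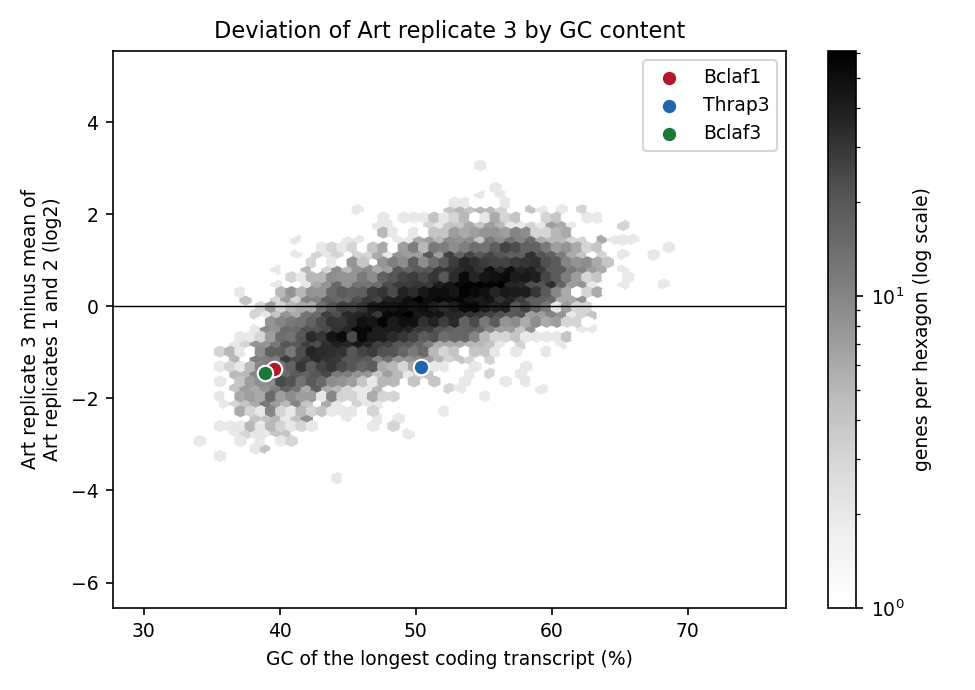
Deviation of Art replicate 3 from the mean of Art replicates 1 and 2 (log2) against the GC content of the longest coding transcript, with genes shown as shaded hexagons (log scale) and 3 family members as coloured points. Bclaf1 (39.6% GC, -1.37) lies within the 5% to 95% range of genes at its GC content. Thrap3 (50.4% GC, -1.32) lies below that range for its own GC content (-1.04 to 1.16).

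Bclaf3, the third gene of the family (ENSMUSG00000044150), was at a lower level per kb than the other two. It averaged 7.56 ± 0.41 CPM per kb in Art_shBCLAF1 and 8.38 ± 3.87 in Art, or 10.6 in Art without replicate 3. Values were 8.79 ± 0.88 CPM per kb in Rag_SPIC_tet_DOX_shBCLAF1, 8.13 ± 0.49 in Rag_SPIC_tet_DOX and 9.42 ± 0.61 in Rag_SPIC_tet_NoDOX. In Art_shBCLAF1 against Art its log2 fold change was -0.01 (SE 0.40, limma adjusted p 0.986) with all libraries, and it fell by 0.49 without Art replicate 3 (SE 0.08, limma adjusted p 0.00019). The authors' deposited table lists 0.48 for Art minus Art_shBCLAF1 (adjusted p 4.06e-06), lower in Art_shBCLAF1. In Rag_SPIC_tet_DOX_shBCLAF1 against Rag_SPIC_tet_DOX the fold change was 0.11 (SE 0.10, limma adjusted p 0.377).

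Genes around BCLAF1 and THRAP3 were read from lists of partners and pathways, counting the members other than the 2 genes themselves. In each count the first comparison is Art_shBCLAF1 against Art and the second Rag_SPIC_tet_DOX_shBCLAF1 against Rag_SPIC_tet_DOX, and the medians of all genes are 0.05 in both. Over all genes, 25.0% were higher and 24.1% lower in the first, 40.6% and 39.5% without Art replicate 3, and 28.5% and 25.1% in the second. With library medians centred these shares were 18.7% and 31.2% in the first and 22.8% and 27.8% in the second. The 23 list genes named with values below, Spi1 aside, all kept their direction and call in the first comparison without Art replicate 3, with sizes that moved by less than 1.5 times. Among the splicing partners of BRCA1 and BCLAF1 and the transcripts reported as their targets in human cells, 5 of 8 rose and none fell in the first (median 0.91), 7 rose and 1 fell without Art replicate 3, and 5 rose and 1 fell in the second (median 0.34). The share that passed was 62.5% in the first and 75.0% in the second, against 49.0% and 53.6% of all genes. With library medians centred, 4 rose and none fell in the first, and 4 rose and 2 fell in the second. Exo1, an exonuclease of DNA end resection, rose by 2.33 (SE 0.14, limma adjusted p 0.00014) and 1.10 (SE 0.23, limma adjusted p 0.0092). U2af1, which recognises the 3′ splice site, rose by 1.33 and 0.93, and Prpf8, the core spliceosome protein, by 0.50 and 0.25. Brca1, chosen after its values were seen, rose by 1.44 (SE 0.22, limma adjusted p 0.0029) in the first and fell by 0.44 (SE 0.09, limma adjusted p 0.0073) in the second.

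Genes of mRNA export, the step in which both proteins have been placed, were higher where they passed the test with all libraries. Of 20 measured, 8 rose and none fell in the first comparison (median 0.59), 15 rose and 1 fell without Art replicate 3, and 12 rose and none fell in the second (median 0.38). The first count was 5 without any 1 of the Art_shBCLAF1 libraries, and the second was 9 to 14 with 1 library left out. The share that passed was 40.0% in the first (49.0% of all genes), 80.0% without Art replicate 3 (80.1% of all genes) and 60.0% in the second (53.6% of all genes), so the number that passed was near that of all genes. Alyref, the adaptor that hands mRNA to the export receptor, rose by 1.35 and 0.73. Ncbp1, of the cap-binding complex, rose by 0.76 and 0.46, Thoc6, a THO subunit, by 0.57 and 0.42, and Eny2 by 0.49 and 0.55. In the exon junction complex and its partners, 4 of 11 rose and none fell in the first (8 higher and 1 lower without Art replicate 3), and 7 rose and none fell in the second, with medians of 0.43 in both. These are 36.4%, 81.8% and 63.6% of the list, beside 49.0%, 80.1% and 53.6% of all genes. With library medians centred, 3 rose and 1 fell in the first, and 6 rose and 1 fell in the second. Rnps1 rose by 1.38 and 1.05, Rbm8a, a core subunit, by 1.28 and 0.43, and Sap18 by 0.43 and 0.43.

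For SR proteins and their relatives, the class of splicing factors to which BCLAF1 and THRAP3 are akin, the count depended on Art replicate 3. With all libraries 4 of 29 rose and 1 fell in the first comparison (median 0.22), without that library 11 rose and 12 fell (median -0.02), and with library medians centred 2 rose and 5 fell (median -0.01). In the first, 1 rose without Art_shBCLAF1 replicate 1 and 2 without replicate 3 of that group. In the second 12 rose and 2 fell (median 0.17). The share that passed was 17.2% with all libraries, 79.3% without Art replicate 3 and 48.3% in the second comparison, beside 49.0%, 80.1% and 53.6% of all genes. Tra2b rose by 1.07 and 0.68, Srsf1 by 0.80 and 0.63, Srsf6 by 0.53 and 1.38, and Srsf3 by 0.46 and 0.73.

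BCL2-family genes, whose products set the threshold for apoptosis and some of which bind BCLAF1, included more that fell than rose. Of 12 measured, 2 rose and 7 fell in the first comparison (median -0.58), 3 rose and 9 fell without Art replicate 3, and 2 rose and 5 fell in the second (median -0.21). With library medians centred, none rose and 6 fell in the second. The share that passed was 75.0% in the first and 58.3% in the second, beside 49.0% and 53.6% of all genes. The count of 5 in the second was 3 without Rag_SPIC_tet_DOX replicate 3 or any 1 Rag_SPIC_tet_DOX_shBCLAF1 library. Bcl2, the anti-apoptotic founder, fell by 2.44 (SE 0.21, limma adjusted p 0.00034) and 0.93 (SE 0.15, limma adjusted p 0.0037). Bmf fell by 2.36 and 0.82, Pmaip1 by 1.67 and 0.55, and Bbc3 by 1.50 and 0.38, and these 3 encode pro-apoptotic proteins of the BH3-only class. In the list of SPIC, PU.1 and partners, 1 of 5 rose and 1 fell in the first, 2 rose and 3 fell without Art replicate 3, and 3 rose in the second. Spic rose in each. Spi1, which encodes PU.1 and was chosen here after its values were seen, differed by -0.05 in the first (limma adjusted p 0.863), by 0.19 without Art replicate 3 (limma adjusted p 0.038) and by 0.18 in the second (limma adjusted p 0.021). The share of this list that passed was 40.0% in the first and 60.0% in the second, beside 49.0% and 53.6% of all genes.

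Mediator, from which THRAP3 was first known, gave 4 of 29 higher and 3 lower in the first comparison (median 0.13), 16 higher and 6 lower without Art replicate 3 (median 0.29), and 3 higher and 5 lower with library medians centred (median -0.10). In the first, 2 rose without Art_shBCLAF1 replicate 1 or replicate 3. In the second, 10 rose and 1 fell (median 0.13), and 2 to 4 rose without Rag_SPIC_tet_DOX replicate 3 or any 1 Rag_SPIC_tet_DOX_shBCLAF1 library. The share that passed was 24.1% in the first, 75.9% without Art replicate 3 and 37.9% in the second, each below the 49.0%, 80.1% and 53.6% of all genes. Med14, the backbone subunit, rose by 1.39 and 0.34, Med30 by 0.90 and 0.44, and Ccnc, the cyclin of its kinase module, by 0.73 and 0.58. All list members were counted among genes that had passed at least 1 of the authors' tests. In the second comparison Bclaf1 rose by 0.32 and Thrap3 by 0.24, above the Mediator median of 0.13. Both lay below the medians there of 0.34 for the BRCA1 and BCLAF1 list, 0.38 for mRNA export and 0.43 for the exon junction complex. In the first comparison with all libraries, both genes lay above the medians of the same lists (0.91, 0.59 and 0.43). Without Art replicate 3, Bclaf1 (0.54) and Thrap3 (0.49) lay below the first of these medians (0.87) and above the others (0.44 and 0.47). The placing against these lists thus differed between the lines.

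**Figure D5:**
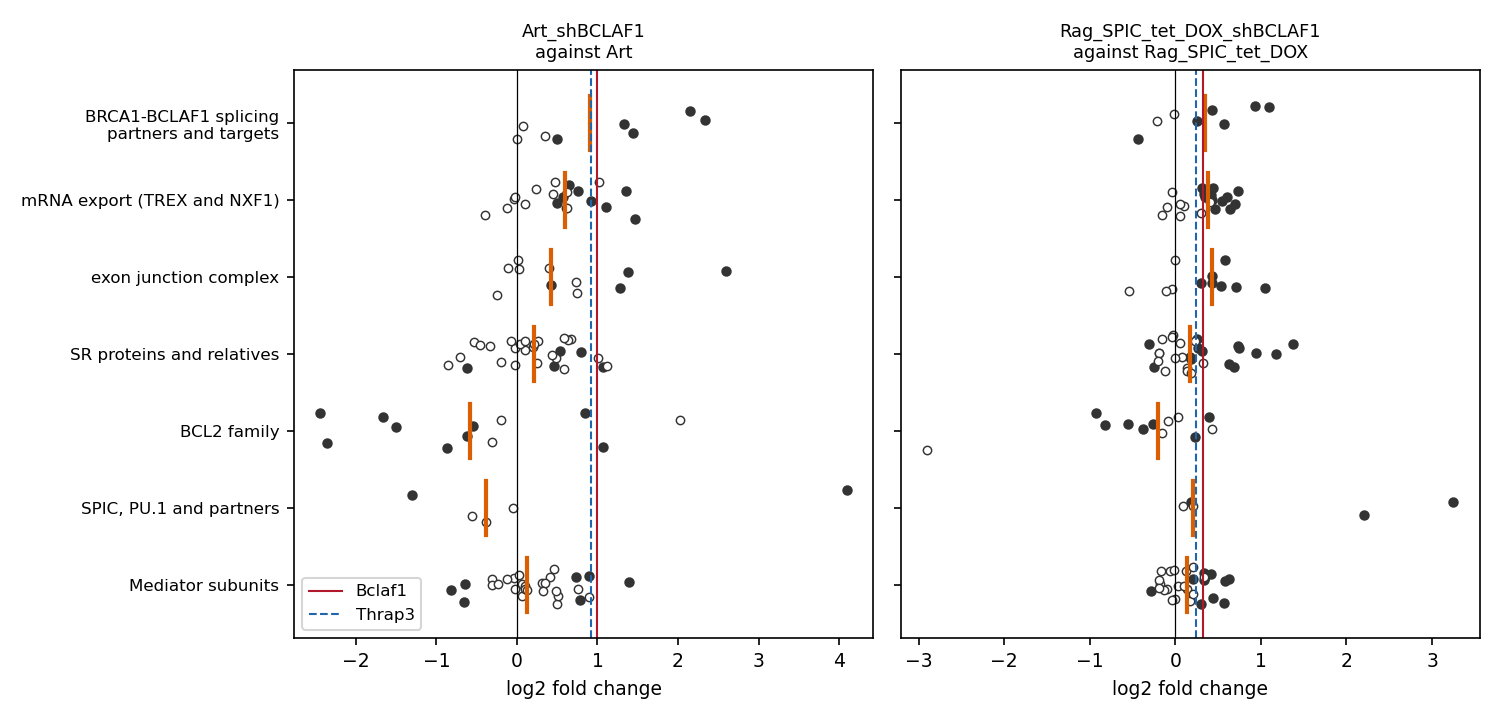
Log2 fold change of list members in Art_shBCLAF1 against Art (left) and Rag_SPIC_tet_DOX_shBCLAF1 against Rag_SPIC_tet_DOX (right); filled points have a limma adjusted p below 0.05, orange bars are list medians, and vertical lines mark Bclaf1 (solid) and Thrap3 (dashed). The mRNA export median is 0.59 on the left and 0.38 on the right, and the BCL2 family medians are -0.58 and -0.21.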

How the data were processed

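RNA was sequenced as paired ends on an Illumina HiSeq, per the labels. The submitters' processing notes name mm9, Subread, featureCounts 1.4.5, edgeR and limma, with no role for each. The authors deposited 4 tables of log2 CPM values for all 15 libraries with their own fold changes and p-values, which were read separately. The score columns of the deposited tables (t statistics, log odds and signed fold changes), made by the authors, were not used. In the deposited log2 values, 100% of those below 1000 reads return to whole reads within 0.05, which gave reads and depth. 1 column name differs by 1 character from the label of Art replicate 3 and was matched to it.

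The 4 tables were joined to 11551 genes, with 152 duplicate rows merged. limma 3.58.1 in R 4.3.3, with a trend in the prior, was fitted to the libraries of each comparison, unblocked, and p-values were Benjamini-Hochberg adjusted over all 11551 genes. These genes had been chosen by the authors' tests on the same libraries. A gene passed below 0.05. All tests were two-sided, with the group named first minus the second. The fit was tested on simulated data. Named list genes passed in both label comparisons in 1 direction, at most 4 per list by size in Art; likeness took 5 genes per correlation. Members and lists were chosen with earlier results of these data known. Alternatives were library medians centred, array weights, 1 fit over 15 libraries, 1 CPM added, a mean log2 CPM of at least 1, a replicate block, voom weights, own-table genes, and each library left out.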

Additional observations from a re-analysis of the deposited data

Results flagged for a closer look

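The label effect in Art minus that in Rag_SPIC_tet_DOX passed limma's interaction test for the genes below, as it did for 31.3% of all genes. The list genes tested were chosen for passing in both label comparisons and by their size in Art, a choice that favours larger effects in Art, and Brca1 was taken after its opposite signs were seen, so the values are a description and their number is not read as a result. In the direction of a larger rise in Art, the difference was 1.24 for Exo1 (limma adjusted p 0.0088), 0.62 for Alyref (adjusted p 0.043) and 0.85 for Rbm8a (adjusted p 0.0085). Srsf6 rose less in Art, with a difference of -0.85 (adjusted p 0.0021). The BCL2-family genes fell more in Art, with differences of -1.52 for Bcl2 (adjusted p 0.0021), -1.54 for Bmf (adjusted p 0.0041), -1.11 for Pmaip1 (adjusted p 0.0114) and -1.12 for Bbc3 (adjusted p 0.0095). Brca1, which rose in 1 line and fell in the other, had a difference of 1.88. Without Art replicate 3 all these differences kept their sign and passed, with Brca1 at 1.64, Pmaip1 at -1.40 and Bbc3 at -0.94. Bclaf1 and Thrap3 did not pass this test with all 12 libraries. Without Art replicate 3 both passed, at 0.22 (limma adjusted p 0.027) and 0.25 (limma adjusted p 0.020).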

How the results depend on the processing

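Of 304 alternative values for Bclaf1, Thrap3 and their ratio, 255 kept direction and side of the threshold. In Art_shBCLAF1 against Art both genes passed with array weights (0.53 for both) and in 1 fit over 15 libraries (0.99 and 0.92). Array weights also brought past the threshold Thrap3 in Art against Rag_SPIC_tet_NoDOX (-0.16), Thrap3 in Art_shBCLAF1 against Rag_SPIC_tet_DOX_shBCLAF1 (0.13) and the line difference (0.21 for Bclaf1, 0.31 for Thrap3). The estimation of these weights did not converge in 4 of the 8 comparisons, the line difference among them. The fit over 15 libraries, where the spread of Art is shared with all groups, ended the calls in Rag_SPIC_tet_DOX_shBCLAF1 against Rag_SPIC_tet_DOX (0.32, 0.24) and against Rag_SPIC_tet_NoDOX (0.34, 0.26), and for Bclaf1 between the labelled lines (0.27). Centring library medians moves the median of all genes by 0.10 or more in the label comparisons; it ended the calls for Thrap3 in the Rag line (0.14) and for the label over both lines (0.49, 0.42), and turned Bclaf1 to -0.025 and Thrap3 to -0.028 in Rag_SPIC_tet_DOX against Rag_SPIC_tet_NoDOX. Bclaf1 in Art against Rag_SPIC_tet_NoDOX turned to 0.035 with array weights. The causes were not tested.

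Leaving out 1 library gave, for Bclaf1 and Thrap3 in turn, 0.54 to 1.24 and 0.49 to 1.14 in Art_shBCLAF1 against Art, 0.29 to 0.35 and 0.21 to 0.27 in Rag_SPIC_tet_DOX_shBCLAF1 against Rag_SPIC_tet_DOX, -0.62 to 0.080 and -0.79 to -0.13 in Art against Rag_SPIC_tet_NoDOX, and -0.0062 to 0.062 and 0.0016 to 0.040 in Rag_SPIC_tet_DOX against Rag_SPIC_tet_NoDOX. The ranges were 0.25 to 0.30 and 0.06 to 0.12 between the labelled lines, 0.31 to 0.38 and 0.23 to 0.29 for Rag_SPIC_tet_DOX_shBCLAF1 against Rag_SPIC_tet_NoDOX, 0.42 to 0.73 and 0.35 to 0.64 for the label over both lines, and 0.22 to 0.92 and 0.25 to 0.90 for the line difference. In the exact test within lines they were 0.43 to 0.78, 0.36 to 0.69 and, for Bclaf1 minus Thrap3, 0.054 to 0.091. Bclaf1 minus Thrap3 ranged over 0.031 to 0.10, 0.058 to 0.11, 0.17 to 0.22 and -0.031 to 0.024 in the 4 pairs. Bclaf1 in Art_shBCLAF1 against Art also passed without Art replicate 1 (adjusted p 0.049), Thrap3 between the labelled lines passed without Art_shBCLAF1 replicate 2 (adjusted p 0.033), and the label over both lines lost Bclaf1 without any 1 Art_shBCLAF1 library and Thrap3 without those, Rag_SPIC_tet_DOX replicate 2 or Rag_SPIC_tet_DOX_shBCLAF1 replicate 3 (adjusted p up to 0.059 and 0.088). Bclaf3 ranged from -0.49 to 0.23 in the Art line.

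Deviations of same-numbered libraries had correlations of -0.23 to 0.20, so the numbers do not pair them, and some libraries correlated best with another number. A replicate block moved Thrap3 over both lines to an adjusted p of 0.054 (0.58) and changed no other call of the 2 genes; genes called went to 4779 in Art_shBCLAF1 against Art, 0 in Art against Rag_SPIC_tet_NoDOX (1902 at an unadjusted p under 0.05) and 150 in Rag_SPIC_tet_DOX against Rag_SPIC_tet_NoDOX, against 5664, 594 and 1367. With medians centred, genes higher and lower were 2155 and 3599 in Art_shBCLAF1 against Art, against 2884 and 2780. Of 644 alternative values for 23 list genes, 75 lost their call and none turned in sign. In the 4 pairs as above, array weights gave 9839, 10078, 6547 and 8589 genes, against 5664, 6186, 594 and 1367, and 9159 against 3621 for the line difference. The weights did not converge in the fits that gave 10078, 8589 and 9159. With 1 library left out and no array weights, the counts in these 5 comparisons were 3740 to 9252, 3945 to 7576, 0 to 5473, 12 to 4569 and 2674 to 6286. The fit over 15 libraries gave 1957 against 594 in Art against Rag_SPIC_tet_NoDOX, 2614 against 6896 between the labelled lines and 6105 against 9206 in Rag_SPIC_tet_DOX_shBCLAF1 against Rag_SPIC_tet_NoDOX.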
